A study of Salmo salar with 59 samples.

Results

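The testis and the pituitary of the same immature Atlantic salmon were compared on 28 of the 59 arrays of the series, 14 of each organ. The fish were male post-smolts that carried the label Stage I, whose gonadosomatic index (gonad weight as a share of body weight) lay below the limit the study used for immature males. The 2 arrays of a fish were joined by its number, and each result below is testis minus pituitary within fish. All fish had been kept for 18 weeks in tanks with brackish water at one temperature. Of the 14, 2 had had continuous light (group A), 2 increasing light (group B), 5 decreasing light (group D) and 5 decreasing light with a low-fat diet (group E), whereas groups A, B and D received the same feed. The other males of the series were 6 pubertal fish (labels Stage III to V), 3 of group A and 3 of group B. By the labels, adipose tissue had been hybridised for 12 of the 14 immature fish. A further adipose array of group E carried the number 211, that of a pubertal fish of group B, and was not used.

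The pituitary is the gland that drives the gonad. Its endocrine cells secrete follicle-stimulating hormone (Fsh), luteinizing hormone (Lh), thyrotropin, growth hormone, prolactin, somatolactin and the peptides of proopiomelanocortin, and in bony fish nerve fibres from the hypothalamus reach these cells directly. The immature testis holds spermatogonia enclosed by Sertoli cells, with steroid-producing Leydig cells, connective tissue, vessels and immune cells between the tubules. Fsh acts mainly on Sertoli cells and Lh on Leydig cells, and meiosis has not yet begun in most germ cells at this stage.

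Levels are log2 spot signals from which each array's own 75th percentile was subtracted, so that 0 is that percentile, a difference of 1 is a factor of 2 in signal, and levels of different probes are not set against each other. A spot was taken as measured where the scanner software marked it as well above background. This held for 66.5% to 84.1% of the probes on testis arrays and 69.5% to 84.3% on pituitary arrays, and no spot was saturated. Near-identical gene copies, which are frequent in salmonids, may bind the same probe. The labelled organs carried their markers on all 28 arrays: the summed level of the hormone genes was 0.59 to 1.57 in testes, against 10.8 to 11.7 in pituitaries, and that of the Sertoli cell genes 7.38 to 7.97 in testes, against 4.84 to 5.51 in pituitaries. One pituitary array was in doubt for its fish number. In a set of 100 probes with levels particular to single fish in both organs, chosen without the fish in question, 13 pituitaries correlated best with their own testis (r = 0.839 to 0.916), whereas that of fish 250 had r = 0.061 with its own testis and 0.275 with the best of the others. Results were therefore also computed without fish 250. One testis array was titled fish 226 but carried the number 236 in another label, and it was taken as fish 226, whose pituitary correlated best with it (r = 0.839). Scan batches crossed the organs unevenly, as both arrays of 5 fish were scanned in batch 1, while 6 fish had the testis in batch 1 and the pituitary in batch 2.

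The organs differed widely. At an adjusted p under 0.05 and a difference beyond 0.8 (1.741-fold), 17179 of 33937 probes tested differed (50.6%), 7846 with higher levels in the testis (23.1%) and 9333 with higher levels in the pituitary (27.5%). In 8942 of the called probes (26.3% of all probes tested) the 14 testes and the 14 pituitaries did not overlap. The balance turned with size: 3307 probes were higher in testis and 3031 in pituitary beyond 2, and 65 and 83 beyond 8. It also depended on the scaling. With quantile normalization 8330 probes were higher in testis and 8722 in pituitary. With scaling to the array median there were 8397 and 8574. The median over all probes tested was -0.15, against which the gene lists below are read. Without fish 250, 17244 probes were called and 16969 of these were shared, and within the 5 fish of scan batch 1 there were 15936. As bulk tissue was measured, fewer cells of a type and less RNA per cell cannot be told apart.

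**Figure D1:**
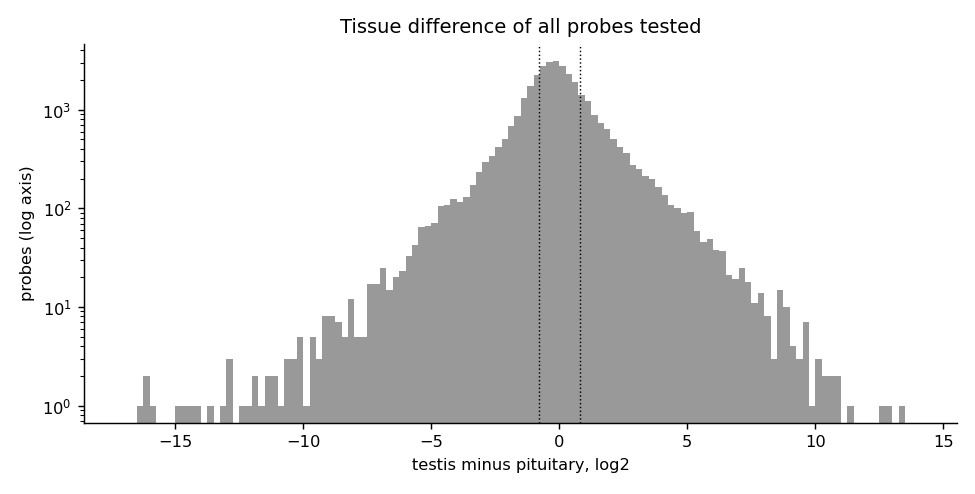
Number of probes (log axis) by testis minus pituitary difference on the log2 scale for all 33937 probes tested in 14 immature fish, in steps of 0.25, with dotted lines at the limit of 0.8 in each direction. The median is -0.15, 50.6% of the probes were called with a difference outside the dotted lines, and both tails run beyond 8, with 65 probes higher in testis and 83 higher in pituitary.

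The hormone genes gave the widest differences of the comparison. Of 9 tested, 8 were higher in the pituitary and none in the testis, with a median of -12.4. The gene tshba, for the beta subunit of thyrotropin, lay between -6.58 and -4.63 (median -5.06) in testes, against 8.42 to 9.36 (median 8.93) in the 13 pituitaries with a usable spot. Prolactin (prl) had -5.06 to -3.20 (median -4.07) in testes, against 7.76 to 8.86 (median 8.40) in 13 pituitaries, and pomca, which encodes the precursor of corticotropin and melanotropins, had -2.33 to -1.32 (median -1.87) in testes, against 8.54 to 9.57 (median 9.41) in pituitaries. No testis came near any pituitary for these genes. The differences were -14.10 ± 0.16 for tshba, -12.43 ± 0.16 for prl and -11.15 ± 0.09 for pomca (SE, adjusted p = 2.7e-18, 9.8e-18 and 1.1e-20, limma with fish as a block). The growth hormone gene, listed in RefSeq under LOC100136588 with the synonym gh, averaged -7.09 ± 1.21 in testes and 9.17 ± 0.36 in pituitaries (SD, n = 14 each) and was well above background on 1 testis array. Somatolactin (smtlb), a hormone of the growth hormone family known from fish, was well above background on none of the testis arrays. It averaged -7.96 ± 0.62 in testes and 6.75 ± 0.78 in pituitaries, which is at least 8130-fold lower in the testis when the dim side is set to the lowest signal measured above background on each array or to its own signal, whichever was higher (adjusted p = 7.4e-18).

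Among the gonadotropin subunits, the common alpha subunit glha1 averaged -4.83 ± 0.44 in testes and 8.36 ± 0.23 in pituitaries (SD, n = 14 each). The beta subunit of Lh (lhb) lay between -4.54 and -1.32 (median -3.60) in testes, against 3.74 to 8.0 (median 5.14) in pituitaries, with the highest pituitary value in fish 250 and the highest testis value in fish 160. The beta subunit of Fsh (fshb) lay between -0.04 and 1.1 (median 0.42) in testes, against 3.15 to 8.70 (median 6.33) in pituitaries. The lowest fshb pituitary, of fish 203, was still above every testis, and the 3 highest were those of fish 250 (8.70), fish 160 (8.47) and fish 176 (8.09). The differences were -8.69 ± 0.28 for lhb and -6.00 ± 0.38 for fshb (SE, adjusted p = 4.2e-14 and 2.3e-10). The fshb probe was well above background on all 14 testis arrays, and in adipose tissue of the same fish it averaged -6.45 ± 1.42 (SD, n = 12) and was well above background on 1 array. Prodynorphin (pdyn), the precursor of opioid peptides, was the one member of the list that was not called: it lay between -3.40 and -1.80 in testes, against -3.27 to 2.65 in pituitaries, and the organs overlapped (difference -0.93 ± 0.50, SE, adjusted p = 0.098). It was called in a fit that added scan batches to the block, within scan batch 1 and with the slide as a random block.

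**Figure D2:**
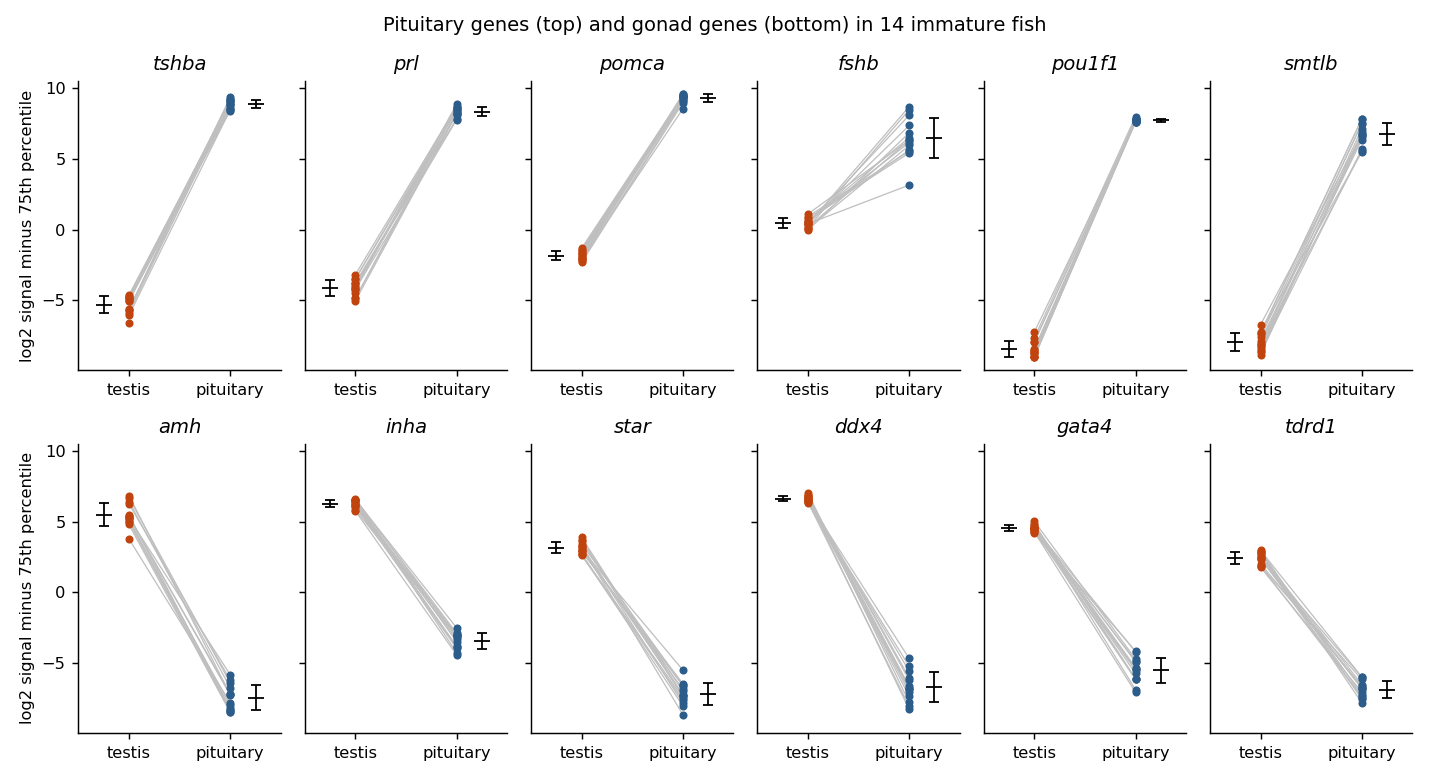
Log2 level (signal minus the array's 75th percentile) of 6 pituitary genes (top) and 6 gonad genes (bottom) in testis (left in each panel) and pituitary (right) of 14 immature fish, with a line joining the 2 organs of a fish and the mean with its SD beside the points. No testis overlapped a pituitary for any of the 12 genes. All but fshb come from the largest differences, a ranking limited to genes without overlap. The gene fshb, with 3.15 to 8.70 in pituitaries, had the widest spread among the pituitary genes.

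Transcription factors that build the pituitary followed the hormones. Of 14 probes tested, 10 were higher in the pituitary, 1 in the testis and 3 were not called (median -7.01). The gene pou1f1, which specifies the cells that make growth hormone, prolactin and thyrotropin, lay between -9.02 and -7.26 (median -8.62) in testes, against 7.60 to 7.99 (median 7.73) in pituitaries. It was well above background on no testis array and was at least 16000-fold lower in the testis (difference -16.19 ± 0.14, SE, adjusted p = 1.1e-20). Its spread over pituitaries was small, with an SD of 0.11. Among the factors that act early in the gland, lhx3 averaged -0.89 ± 0.53 in testes and 5.89 ± 0.19 in pituitaries, and pitx1 -1.61 ± 0.44 in testes and 5.63 ± 0.20 in pituitaries (SD, n = 14 each). The homeobox genes six3a and six6a, known from the development of forebrain, eye and pituitary, had differences of -10.32 ± 0.28 and -3.89 ± 0.17 (SE, adjusted p = 4.5e-15 and 1.8e-12). The factors of neuroendocrine differentiation insm1b and ascl1a averaged -4.43 ± 0.58 and -5.49 ± 0.86 in testes, against 5.68 ± 0.31 and 2.66 ± 0.48 in pituitaries. The exception was hesx1, a repressor that acts in the embryonic pituitary, which was dim in both organs at -5.21 ± 0.57 in testes and -6.38 ± 1.1 in pituitaries (difference 1.17 ± 0.31, SE, adjusted p = 0.0024) and was well above background on 12 testis and 6 pituitary arrays. Its call was lost with normexp background correction and with the authors' processed values.

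The machinery for storing and cutting prohormones was also on the pituitary side. Of 13 probes, 11 were higher in the pituitary, 1 in the testis and 1 was not called (median -4.85). Prohormone convertase 2 (pcsk2) lay between -2.73 and -0.12 (median -0.80) in testes, against 4.92 to 7.84 (median 7.30) in pituitaries. The amidating enzyme pam averaged -0.31 ± 0.21 in testes and 4.98 ± 0.53 in pituitaries, the granule protein ptprnb -0.25 ± 0.43 in testes and 7.18 ± 0.33 in pituitaries, and secretogranin 2 (scg2b) -3.49 ± 0.85 in 14 testes and 6.46 ± 0.40 in 13 pituitaries (SD). The differences ran from -9.99 ± 0.21 for scg2b to -5.29 ± 0.14 for pam (SE, adjusted p = 1.2e-15 and 3.8e-15). Chromogranin B (chgb) and vgf were well above background on no testis array and were at least 9.30-fold and 8.27-fold lower there (adjusted p = 1.3e-13 and 3.6e-09). The call of vgf was lost with normexp background correction. The synaptotagmin syt5a ran the other way, with -2.06 ± 0.47 in testes and -4.14 ± 0.51 in pituitaries (difference 2.08 ± 0.17, SE, adjusted p = 9.9e-09), a call that was lost with normexp background correction.

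Receptors for hypothalamic factors and neural markers showed no such one-sided picture. Of 5 receptor probes tested, the somatostatin receptor sstr2a was higher in the pituitary (-8.16 ± 0.97 in testes and -3.26 ± 0.78 in pituitaries). The receptors ghrhr2, trhr2 and sstr1a were higher in the testis. The estrogen receptor esr1, not a receptor for a hypothalamic factor but a member of this list, was not called (median of the 5 probes 0.82). Both ghrhr2 and trhr2 were dim: trhr2, related to the receptor for thyrotropin-releasing hormone, averaged -4.49 ± 0.83 in testes and -6.61 ± 1.0 in pituitaries, of which 4 were well above background. The call of sstr1a (difference 0.82) was lost without fish 250. With normexp background correction the calls of sstr2a, ghrhr2, trhr2 and sstr1a were all lost. No probe tested was matched by symbol to a receptor for gonadotropin-releasing hormone, dopamine or corticotropin-releasing hormone. Of 12 neural probes, 6 were higher in the pituitary, 3 in the testis and 3 were not called (median -0.88). The glial genes fabp7 and LOC100286437 (s100b is a RefSeq synonym, and a separate s100b probe was also higher in the pituitary) averaged 1.51 ± 0.42 and -1.38 ± 0.90 in testes, against 5.09 ± 0.27 (n = 13) and 5.10 ± 0.36 (n = 14) in pituitaries. The myelin gene mbpa was at least 8.49-fold lower in the testis, where no array had it well above background. Its call was lost with normexp background correction. The neurofilament gene nefl, the glutamate decarboxylase gad2 and the vesicular glutamate transporter slc17a6a were higher in the testis, with differences of 1.74 ± 0.39, 2.02 ± 0.23 and 0.99 ± 0.33 (SE, adjusted p = 0.00067, 6.7e-07 and 0.012). The organs overlapped for all 3, each call was lost with normexp background correction, and that of slc17a6a also within scan batch 1.

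On the gonad side, Sertoli cell genes had the highest median of the lists. Of 10 probes, 8 were higher in the testis, none in the pituitary and 2 were not called (median 4.67). Anti-Müllerian hormone (amh), which Sertoli cells secrete and which in fish restrains the differentiation of spermatogonia, lay between 3.77 and 6.83 (median 5.32) in testes, against -8.49 to -5.83 (median -7.54) in pituitaries, none of which had it well above background. It was at least 2790-fold higher in the testis (difference 12.94 ± 0.21, SE, adjusted p = 1.3e-17), and the lowest testis was that of fish 160. The inhibin alpha subunit inha averaged 6.27 ± 0.28 in testes and -3.42 ± 0.56 in pituitaries, and the transcription factor gata4, which acts in the gonadal soma, averaged 4.55 ± 0.22 in testes and -5.52 ± 0.90 in pituitaries (SD, n = 14 each). The tumour suppressor homologue wt1a, which is needed for the gonadal ridge, had a difference of 7.05 ± 0.14, and desert hedgehog (dhh), a signal from Sertoli to Leydig cells, one of 4.81 ± 0.30 (SE, adjusted p = 1e-16 and 2.4e-10). The activin subunits inhbaa and inhbab had differences of 4.53 ± 0.28 and 3.53 ± 0.15 (SE), and the call of inhbaa was lost with normexp background correction. The growth factor igf3, which in fish is known as an Fsh target in the testis, was not called, with -2.51 to 1.89 (median -1.89) in testes, against -2.03 to 1.62 (median -1.18) in pituitaries (adjusted p = 0.09). It was called to the pituitary without fish 160 and 250.

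Steroidogenic genes were called to both organs. Of 12 probes for 11 genes, 5 were higher in the testis, 3 in the pituitary and 4 were not called, with a median of -0.02. The cholesterol carrier star, which feeds the first step, lay between 2.60 and 3.88 (median 3.12) in testes, against -8.66 to -5.50 (median -7.28) in pituitaries and was at least 562-fold higher in the testis (difference 10.34 ± 0.22, SE, adjusted p = 2.8e-16). The electron carrier fdx1b and the Lh receptor lhcgr were well above background on no pituitary array and were at least 67.9-fold and 26.9-fold higher in the testis. The enzymes hsd3b1 and cyp17a1 averaged 4.02 ± 0.48 and 0.19 ± 0.54 in testes, against -3.27 ± 1.21 and -6.55 ± 0.66 in pituitaries (SD, n = 14 each). The genes on the pituitary side were the brain-type aromatase cyp19a1b, which turns androgens into estrogens, the factor nr5a1b and 1 of 2 hsd17b3 probes. For cyp19a1b, levels of -8.62 to -6.48 (median -7.23) in testes stood against -1.53 to 1.02 (median -0.58) in pituitaries, and it was at least 54.7-fold lower in the testis, where no array had it well above background (difference -6.95 ± 0.23, SE, adjusted p = 6.5e-14). The 2 hsd17b3 probes disagreed in size, with differences of -6.28 ± 0.41, which was called, and -0.63 ± 0.12, which was not. For nr5a1b, a regulator of steroidogenic and gonadotrope cells, the organs overlapped at -2.21 ± 0.56 in testes and -0.67 ± 1.14 in pituitaries (difference -1.54 ± 0.25, SE, adjusted p = 2.8e-05).

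Germ cell genes were measured in all testes. Of 22 probes for 21 genes, 18 were higher in the testis and 4 in the pituitary (median 3.55). The RNA helicase ddx4 (vasa), the standard marker of germ cells, lay between 6.34 and 7.02 (median 6.61) in testes, against -8.28 to -4.69 (median -6.82) in pituitaries, of which 4 had it well above background. Its difference of 13.31 ± 0.28 was the largest on the testis side among genes with a symbol (SE, adjusted p = 2.8e-16). Several proteins that work with small piRNAs against transposons were in the list: tdrd1 averaged 2.42 ± 0.42 in testes and -6.88 ± 0.58 in pituitaries, piwil1 2.13 ± 0.52 in testes and -5.73 ± 0.63 in pituitaries, and asz1 3.42 ± 0.24 in testes and -2.93 ± 0.60 in pituitaries. For tdrd6a, a component of germ granules, no pituitary array was well above background and the level was at least 130-fold higher in the testis. The RNA-binding protein gene dazl was at least 13.6-fold higher there. On the pituitary side stood both probes of tdrd7b, pou5f3 and gfra1a, the co-receptor for glial cell line-derived neurotrophic factor, which averaged 0.17 ± 0.50 in testes and 2.57 ± 0.50 in pituitaries (difference -2.39 ± 0.19, SE, adjusted p = 4.6e-09). Neurons also use this receptor. The call of pou5f3 was lost within scan batch 1 and with normexp background correction. That of the tdrd7b probe with the higher mean was also lost with normexp.

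Meiosis genes were higher in the immature testis as well, although the fish carried the label Stage I. Of 15 probes, 12 were higher in the testis, none in the pituitary and 3 were not called (median 3.81). The cohesins smc1b and stag3, which hold meiotic chromosomes together, lay between 2.32 and 3.71 (median 3.17) and between 0.22 and 1.66 (median 1.03) in testes, against -6.76 to -4.68 (median -5.49) and -9.21 to -6.23 (median -7.95) in pituitaries. The synaptonemal complex genes sycp2 and sycp3 averaged 1.46 ± 0.26 and 0.47 ± 0.20 in testes, against -1.97 ± 0.21 and -5.55 ± 0.51 in pituitaries (SD, n = 14 each). The gene spo11, whose enzyme cuts DNA to start recombination, had -0.98 ± 0.26 in testes and -4.78 ± 0.98 in pituitaries. The genes rec8b, tex11 and mlh3 were not called, the last with a difference of 0.69 ± 0.08 (SE), short of the limit of 0.8.

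Genes best known from oocytes were present in the testis. Of 7 probes, 6 were higher in the testis and none in the pituitary (median 4.08), while figla was not called. The oocyte transcription factor nobox lay between 1.23 and 2.94 (median 2.77) in testes, against -2.94 to -1.98 (median -2.49) in pituitaries. The linker histone h1m and the growth factor gdf9 averaged 0.46 ± 0.30 and -1.72 ± 0.46 in testes, against -4.38 ± 0.63 and -7.23 ± 1.1 in pituitaries, with gdf9 well above background on 2 pituitary arrays (SD, n = 14 each). The egg coat gene zpax1 overlapped between the organs and is described with the variable genes below.

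The hox genes give body regions their identity along the head to tail axis, and many were higher in the testis. The summed level of the list overlapped between the organs, with 3.21 to 4.14 in testes and 2.81 to 3.72 in pituitaries. Of 65 probes, 40 passed the filter on dim spots, so a probe could pass on the testis arrays alone. Of these 40, 35 were higher in the testis, none in the pituitary and 5 were not called (median 4.04), and 17 were well above background on all testis arrays and no pituitary array. The gene hoxc8aa, with the largest difference among them, lay between -0.77 and 1.69 (median 0.32) in testes, against -9.04 to -6.23 (median -7.52) in pituitaries and was at least 82.2-fold higher in the testis (difference 7.90 ± 0.27, SE, adjusted p = 1e-13). Genes from the 5' end of the clusters, which mark posterior levels, were among them: hoxb13ab was at least 22.4-fold, hoxd11ab at least 5.58-fold and hoxa13aa at least 4.17-fold higher. So were 3' genes, as hoxa5aa and hoxc4aa were at least 14.3-fold and 12.1-fold higher. Adipose tissue of the same fish split these genes. It averaged -0.76 ± 0.45 for hoxa5aa and -0.35 ± 0.65 for hoxb6aa, well above background on all 12 arrays, but -7.66 ± 0.75 for hoxb13ab and -7.66 ± 0.78 for hoxd11ab, on none. The probes of hoxb8ba, hoxd3ab and hoxc12ba had negative differences that were not called (-0.73, -0.77 and -1.12), and in hoxb8ba the organs did not overlap. Each was called to the pituitary under some alternatives, hoxb8ba within scan batch 1, and hoxd3ab and hoxc12ba with the authors' processed values.

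Genes of cells that are not particular to either organ also differed. All 15 leukocyte and antigen presentation probes tested were higher in the testis (median 2.12): the common leukocyte antigen ptprc averaged 1.51 ± 0.56 in testes and -1.03 ± 0.35 in pituitaries, the T cell gene cd3e -3.03 ± 0.70 in testes and -5.73 ± 0.72 in pituitaries, and the B cell gene cd79b -0.53 ± 0.53 in testes and -2.68 ± 0.30 in pituitaries (SD, n = 14 each). The 2 probes of beta-2-microglobulin had differences of 3.14 ± 0.12 and 2.07 ± 0.09 (SE). Of 7 smooth muscle and matrix probes 6 were higher in the testis (median 2.16), led by acta2, smooth muscle actin, with 5.67 ± 0.41 in testes and 0.81 ± 0.79 in pituitaries, and col1a1b, a chain of collagen I, with 6.34 ± 0.40 in testes and 3.13 ± 0.54 in pituitaries. Of 8 adipocyte probes, 6 were higher in the testis and 1 in the pituitary (median 1.43). The lipid droplet gene plin1 averaged 1.32 ± 0.37 in testes and -3.94 ± 0.47 in pituitaries, against 7.54 ± 0.62 in adipose tissue (n = 12). Of 5 erythrocyte probes, hbae and slc4a1b were higher in the testis, alas2 and hba in the pituitary, and the differences of the last 2 were -1.12 ± 0.22 and -0.92 ± 0.16 (SE). The call of hba was lost with quantile normalization and within scan batch 1, and that of slc4a1b with normexp background correction. The haemoglobin probe hbae was well above background on no pituitary and no adipose array and averaged -1.31 ± 0.48 in testes, at least 25.4-fold higher there. In the small list for epithelium and skeletal muscle, ckmb was higher in the pituitary (-8.04 ± 0.91 in testes and -2.08 ± 0.44 in pituitaries) and actc1a and ckm2 were higher in the testis by 0.82 and 0.86, with the call of actc1a lost without fish 250. The part of these cells in the other results was not tested. Cytosolic ribosomal protein genes stayed close to the array scale, with 39 of 43 probes not called and a median of -0.25. Only rpl3l was higher in the testis among them, and rs3a, rplp1 and rps28 were higher in the pituitary by 0.82 to 0.95, and these 3 calls were lost with quantile normalization.

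**Figure D3:**
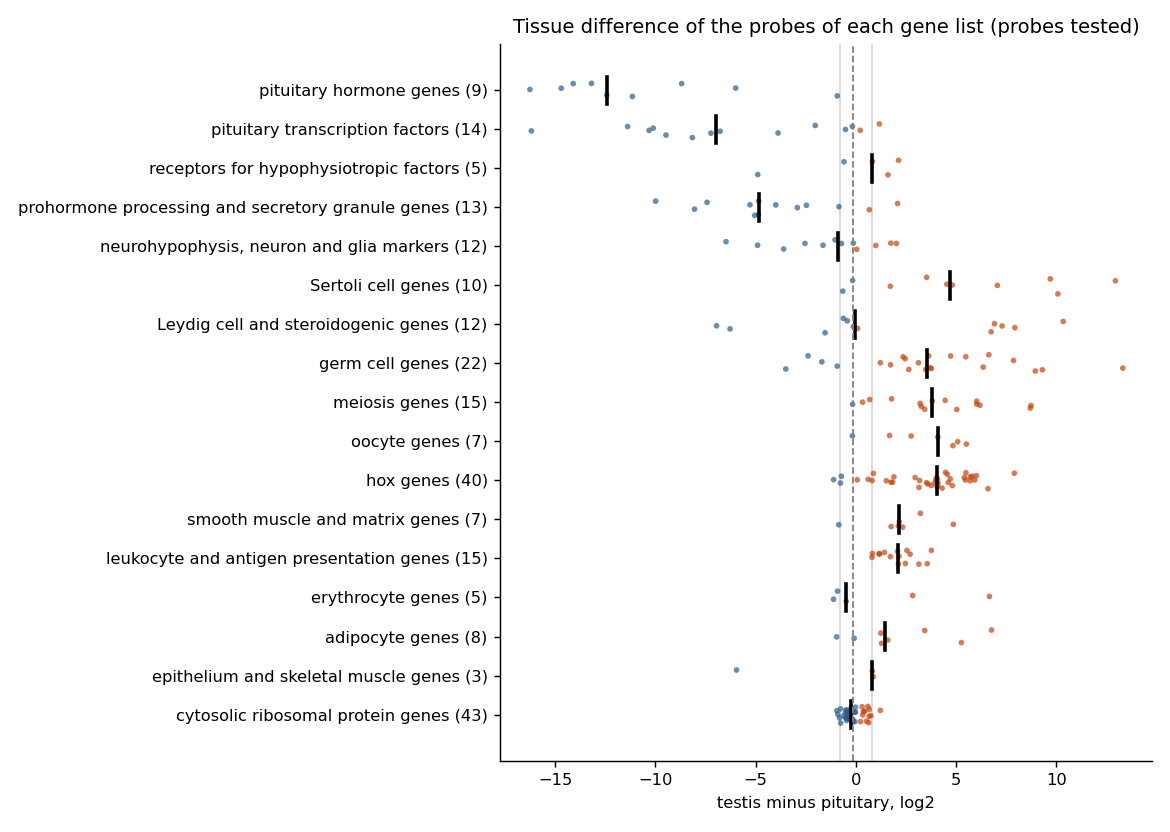
Testis minus pituitary difference on the log2 scale (x axis) of each probe of 17 gene lists, with the number of probes tested in brackets, a black bar at the median of the list, a dashed line at the median of all probes tested (-0.15) and pale lines at the limit of 0.8. Points right of 0 are higher in testis and points left of 0 higher in pituitary, with list medians from -12.4 for hormone genes to 4.67 for Sertoli cell genes.

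Some genes were measured in one organ alone. On all 14 testis arrays and no pituitary array, 370 probes were well above background (1.09%), and 193 probes (0.569%) were so on all 14 pituitary arrays and no testis array. In the adipose tissue of the same fish, 117 of the 370 and 82 of the 193 were well above background on none of 12 arrays, while 38 of the 370 and 0 of the 193 were on all 12. Genes with a symbol made up 98 of the first set and 46 of the second. Among the largest differences outside the lists, ccdc73 lay between 2.06 and 2.92 (median 2.49) in testes, against -9.43 to -7.27 (median -7.90) in pituitaries and was at least 357-fold higher in the testis (adjusted p = 6.2e-18). The BRICHOS domain gene bricd5 and the LIM domain gene fhl1b averaged 3.62 ± 0.31 and 4.64 ± 0.24 in testes, against -6.53 ± 0.83 and -4.74 ± 0.84 in pituitaries, and ccdc36 averaged 1.72 ± 0.37 in testes and -7.80 ± 0.85 in pituitaries (SD, n = 14 each). On the pituitary side, the ependymin-like gene epdl2 averaged -3.30 ± 0.39 in testes and 8.02 ± 0.63 in pituitaries, vwa5b2 -6.46 ± 0.70 in testes and 5.31 ± 0.35 in pituitaries, and si:dkey-85n7.8 -7.27 ± 0.94 in testes and 5.53 ± 0.77 in pituitaries. Apart from ccdc73, these genes were not measured in one organ alone. On pituitary arrays, bricd5 was well above background on 5, fhl1b on 11 and ccdc36 on 1. On testis arrays, epdl2 was so on 14, vwa5b2 on 5 and si:dkey-85n7.8 on 3. Absence of overlap between the organs was a condition for naming the genes with the largest differences. Of all probes tested, 26.3% were called and did not overlap.

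The organ difference of some genes varied strongly from fish to fish. Among called genes without overlap, the liver type fatty acid binding protein gene fabpl had the largest SD of the difference (3.20). It lay between -5.40 and 3.51 (median -4.01) in testes, against -9.42 to -6.05 (median -7.96) in pituitaries. The testes of fish 221, 233, 255, 198 and 180 had 3.51, 1.58, 0.94, -0.30 and -0.74, and the next was fish 250 with -2.84. In the same 5 testes the egg coat gene zpax1 had 2.22, 0.17, -0.08, -1.21 and -0.88, against -4.58 to -2.02 in the other 9, and the gene sax had 7.11, 4.59, 5.13, 2.86 and 3.62, against -4.92 to -0.59 in the others. These 5 fish belonged to groups D and E, which hold 10 of the 14 fish, and the pituitaries of the 14 fish had zpax1 between -6.12 and -4.14. The zpax1 difference was 2.76 ± 0.53 (SE, adjusted p = 0.00017). Because these genes were chosen for their spread or after their values were seen, the pattern is given as a description.

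Lactate dehydrogenase A (ldha), a glycolytic enzyme, parted the testes differently. Its level was -0.28, -0.29, -0.46 and -0.59 in the testes of fish 203, 221, 233 and 240, against -7.15 to -4.63 in the other 10 testes, while the 13 pituitaries with a usable spot had 3.50 to 5.59. The mean difference was -8.51 ± 0.73 (SE, adjusted p = 2.6e-08). Of the spread on the pituitary side, nme4, a nucleoside diphosphate kinase, had 0.14 to 8.50 (median 5.19) in pituitaries, where fish 236 and 226 had 0.14 and 0.30, while testes had -1.31 to -0.63. The same 2 pituitaries were the lowest for scpp1, with -2.02 and -1.66, against 1.98 to 6.96 in the other 12, and testes had -8.61 to -4.70.

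Liver genes were high in the testes of single fish. A list of plasma protein genes, added after these values were seen, had a summed level of 7.40 in the testis of fish 198 and 7.04 in that of fish 226, against 4.74 to 5.32 in the other 12 testes and 4.58 to 5.26 in the 14 pituitaries. In these 2 testes apoa2 was 5.30 and 4.85, against -5.83 to 1.08 in the others, and the haem carrier gene hpxa was 2.99 and 2.44, against -5.40 to -1.77. Of the 19 probes of the list that were tested, 11 were higher in the testis, 3 in the pituitary and 5 were not called (median 1.34). The testis of fish 160 had the highest summed level of the adipocyte genes, 7.09 against 4.64 to 5.37 in the other 13. In the 6 pubertal testes this sum was 6.85 to 7.81. A sum follows its brightest probes and does not stand for each member. Without fish 184, 2 of 9 adipocyte probes had a higher organ difference in pubertal than in immature fish and 5 a lower one (median change -0.93). This difference also depends on the pituitary level.

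**Figure D4:**
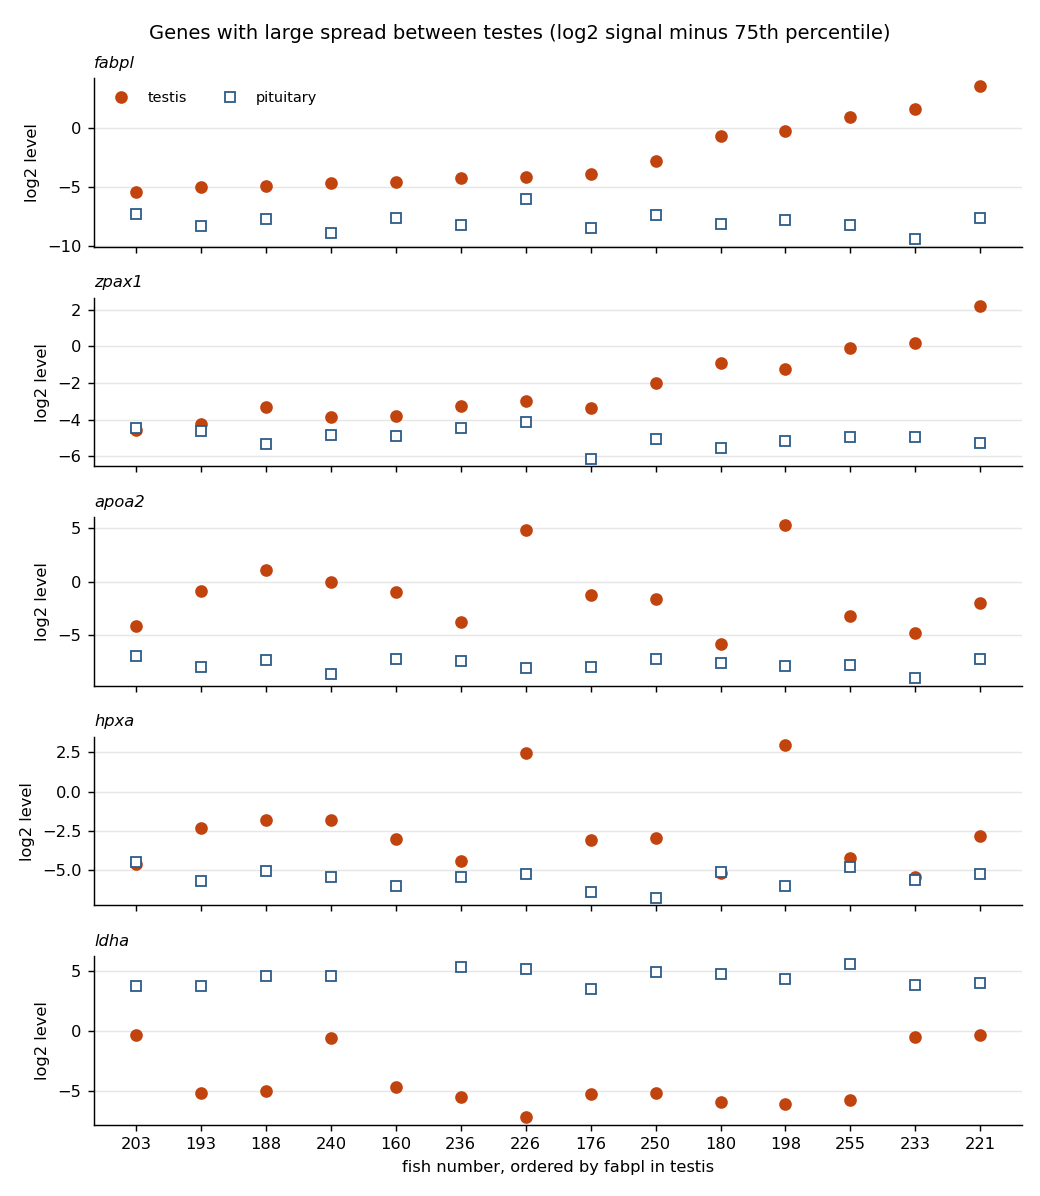
Log2 level (signal minus the array's 75th percentile) of 5 genes in testis (filled circles) and pituitary (open squares) of 14 immature fish, ordered from left to right by fabpl in the testis. The 5 fish on the right have high fabpl and zpax1 in the testis, fish 226 and 198 have high apoa2 and hpxa, and 4 testes have ldha near 0.

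Whether light or diet changed the organ difference was asked among the immature fish. For diet, groups E and D shared the decreasing light, and 0 of 34575 probes passed the limma test of the per-fish difference (0%), and 3659 (10.6%) had an unadjusted p under 0.05. On simulated data of the same size, drawn independently for each probe, 66% of probes changed by 2 were found. Changes of that size as well as smaller ones may therefore have been missed. Light groups A and B against D and E gave 92 of 33937 probes (0.271%), 74 with a higher difference in A and B (0.218%) and 18 with a lower one (0.053%). Group E, with the low-fat diet, stood on one side only, so this contrast does not fully separate light from diet. With the authors' processed values there were 10 higher and 8 lower, and with quantile normalization 201 and 73. The count rested on single fish, as 7 were left without fish 203 and 306 were called without fish 160. Without fish 250 there were 47, and without fish 160 and 250 there were 302 (0.89%), 274 higher (0.807%) and 28 lower (0.0825%), of which 50 were shared with the 92. All A and B pituitaries had been scanned in batch 1, but only 2 of those of D and E. Among fish with both arrays in batch 1 (3 of A and B, 2 of D) no probe passed and 1881 (5.55%) had an unadjusted p under 0.05.

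Among genes with a symbol, elovl2 and nkx3-2 had the largest lower differences in A and B. The elongase elovl2, which makes very long polyunsaturated fatty acids, lay between -0.20 and 0.20 (median -0.03) in the 4 pituitaries of A and B, against -6.23 to -3.16 (median -4.21) in the 10 of D and E. Its testis levels were -1.41 to -0.74 (median -1.0) in A and B, against -1.59 to -0.70 (median -1.18) in D and E. The homeobox gene nkx3-2 lay between 0.04 and 0.79 (median 0.22) in the pituitaries of A and B, against -3.34 to -1.97 (median -3.03) in those of D and E, with testes at -2.76 to -1.83 in A and B and -2.76 to -1.82 in D and E. For both genes the light groups did not overlap in the pituitary and did overlap in the testis. This was not particular to them, as it also held for ankrd50l, itga11b, gfi1b, hoxb9ab and aanat1. The pituitary mean changed more than the testis mean in 70 of the 74 higher calls and 15 of the 18 lower ones. How many of all probes had such a pattern was not counted. The change of the organ difference was -4.37 ± 0.59 for elovl2 and -3.26 ± 0.31 for nkx3-2 (SE, adjusted p = 0.0087 and 0.00082). Over the alternatives the adjusted p ran from 0.0057 to 0.89 for elovl2 and from 0.00079 to 0.89 for nkx3-2, with 0.89 in the 5 fish of one scan batch, where the changes were -3.24 and -3.31. The elovl2 call was also lost without fish 203 (adjusted p = 0.056). The 2 D pituitaries scanned in batch 1, those of fish 176 and 180, had -3.92 and -3.32 for elovl2 and -3.30 and -2.78 for nkx3-2. In the pubertal pituitaries of A and B other than that of fish 184, elovl2 was -1.02 to 0.23 and nkx3-2 -0.25 to 0.17.

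**Figure D5:**
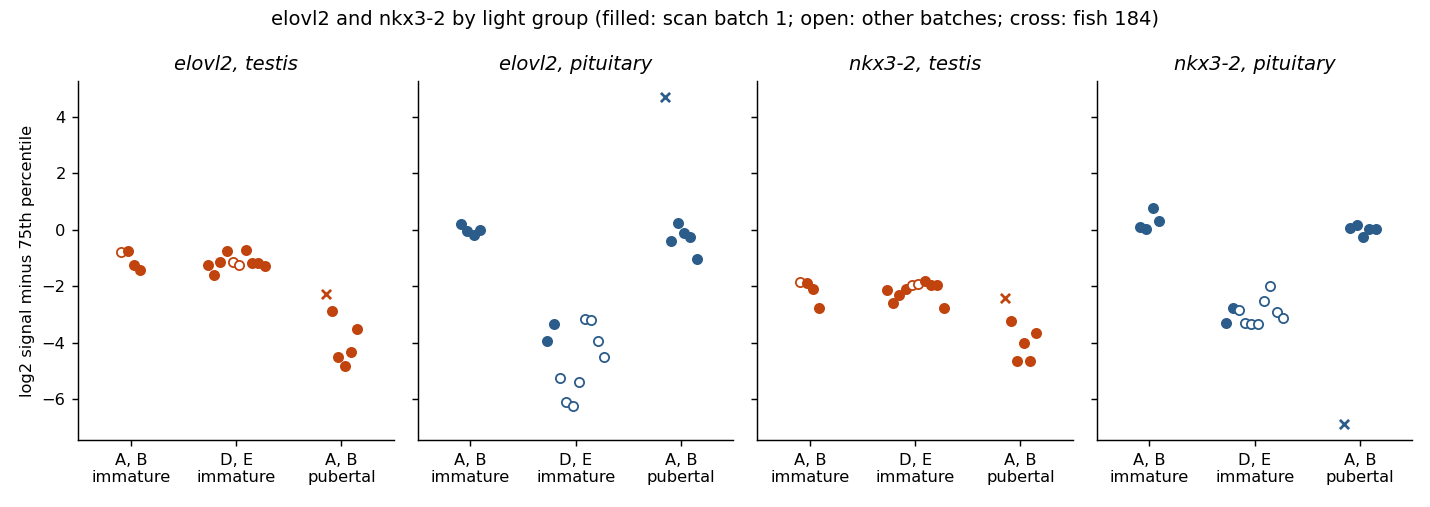
Log2 level (signal minus the array's 75th percentile) of elovl2 and nkx3-2 in testis and pituitary of immature fish of groups A and B, immature fish of D and E, and pubertal fish of A and B, with filled points for arrays of scan batch 1, open points for other batches and a cross for fish 184. In the pituitary the immature A and B fish lie near 0 and the D and E fish between -6.23 and -1.97, while the testis levels of the immature groups overlap.

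Some of the remaining calls between light groups rested on dim spots. Of the 74 probes with a higher difference in A and B, 45 were well above background on all 4 pituitaries of A and B and 23 on none, and the pituitary mean changed more than the testis mean in 70. Of the 18 with a lower difference, 14 were well above background on all 4 of these pituitaries and 1 on none. For gfi1b, the pituitaries averaged -7.10 ± 0.14 in A and B, none well above background, and -5.15 ± 0.55 in D and E, while testes averaged -3.59 ± 0.38 and -4.27 ± 0.69. The ankyrin repeat gene ankrd50l had the largest change, 4.95 ± 0.94 (SE, adjusted p = 0.049). Its testes had -1.58 ± 1.84 in A and B and -3.28 ± 1.61 in D and E, and its pituitaries had -3.18 ± 1.11 in A and B and 0.07 ± 1.29 in D and E. The gene aanat1, for an enzyme of melatonin synthesis, had testes at -3.10 ± 0.42 in A and B and -2.07 ± 0.48 in D and E, and pituitaries at -1.04 ± 0.34 in A and B and -1.91 ± 0.49 in D and E (change -1.89 ± 0.37, SE, adjusted p = 0.05, which lay just under the limit).

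The organ difference of immature fish was set against that of pubertal fish. One pubertal pituitary array, that of fish 184, went against its label: its hormone genes summed to -1.41, against 11.2 to 11.8 in the other 5, and its liver list to 13.8, against 4.96 to 5.02. With it, 18425 of 35505 probes had another difference in pubertal than in immature fish (51.9%), 10538 higher (29.7%) and 7887 lower (22.2%). Without it there were 20327 (57.3%), 11429 higher (32.2%) and 8898 lower (25.1%), and 17088 were shared. With the authors' processed values the split turned to 5443 higher and 8659 lower, with a median change of all probes of -0.03, against 0.33 with the scaling used here. The values that follow are without fish 184.

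All 15 meiosis probes had a higher organ difference in pubertal fish (median change 2.60, against 0.36 over all probes). By contrast, 8 of 10 Sertoli cell probes had a lower difference and 1 a higher one (median -2.18), as did 15 of 15 leukocyte probes (median -2.99), 26 of 46 hox probes with 2 higher (median -1.85) and 7 of 12 steroidogenic probes with 1 higher (median -2.23). The hormone list had 6 of 9 probes with a lower difference (fshb, lhb, pdyn, pomca, prl and tshba). For prl and tshba the pituitary level did not rise, and the testis signal, already low in immature fish, was lower. All tshba testis levels of these pubertal fish lay below the lowest signal marked well above background on their arrays (-6.39 to -5.16). So did prl in the testes of fish 245, 211 and 213. The size of the decrease in testes was therefore not measured. In pubertal fish, prl had 7.70 to 7.96 in pituitaries and -7.31 to -4.98 in testes. Immature fish had 7.76 to 8.86 and -5.06 to -3.20. For tshba, pubertal fish had 8.20 to 9.11 in pituitaries and -8.21 to -6.17 in testes. Immature fish had 8.42 to 9.36 and -6.58 to -4.63. The gene bricd5, named above for its high level in immature testes, averaged -3.76 ± 1.78 in 5 pubertal testes and 3.62 ± 0.31 in 14 immature testes, with pituitaries at -6.75 ± 0.84 in pubertal and -6.53 ± 0.83 in immature fish (change -7.16 ± 0.64, SE, adjusted p = 1.4e-08). For fbxo36a, testes averaged 2.69 ± 1.65 in pubertal and -3.48 ± 0.45 in immature fish, with dim pituitaries at -6.89 ± 0.68 and -6.62 ± 0.57 (change 6.44 ± 0.52, SE, adjusted p = 4.3e-09). For the neurofilament gene nfm, testes had -5.10 ± 0.56 in pubertal and -0.65 ± 0.33 in immature fish, and pituitaries had 1.76 ± 0.60 in pubertal and -1.63 ± 1.22 in immature fish (change -7.83 ± 0.64, SE, adjusted p = 4.5e-09). In fish 250, whose pituitary array was in doubt, lhb (8.0) and fshb (8.70) of the pituitary lay within the range of the 5 pubertal pituitaries (7.75 to 8.28 for lhb and 8.17 to 9.0 for fshb). The pituitary of fish 160, also labelled Stage I, lay within the pubertal range for fshb and below it for lhb (6.68). The upper fshb and lhb values of the immature group thus include these fish.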

How the data were processed

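RNA of testis and pituitary of 14 immature males was hybridised to one-colour 44K Atlantic salmon arrays (Salgeno-2), 1 fish and organ per array. The deposited scanner files hold a spot intensity that Agilent Feature Extraction 12.0.1.1 had background-subtracted and detrended, and marks (codes that carry no unit, called other) for outliers and well above background spots. The authors also deposited processed intensity values, whose scaling is not given in the sources used here, and these served as an alternative. The genome build behind the probes is not given in the sources used here. Precision is limited by the number of arrays.

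Levels are log2 of the processed intensity minus the 75th percentile of the array, with control and outlier spots left out. Only probes marked well above background in 14 or more arrays entered a fit (10 or more for E against D). limma 3.58.1 in R 4.3.3 (lmFit and eBayes, two-sided) was fitted with fish as a block, because both arrays came from the same fish. Deviations of a fish from the organ means correlated at -0.066 to 0.267 between its 2 organs. The other 3 comparisons used the per-fish difference. Calls needed a Benjamini-Hochberg adjusted p under 0.05 over all probes tested and a difference beyond 0.8. On simulated data with 200 probes changed by 2, 97% were found for testis against pituitary. Of 42386 probes, 25420 (60.0%) matched a gene through the RefSeq transcripts of Ssal_v3.1, used for names only. Figures were drawn with matplotlib 3.10.9.

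The rule for named genes took list members, the 10 largest differences per organ without overlap, the 10 largest SDs of the difference and the 5 largest calls per direction of the other comparisons. Members and lists were chosen with earlier results of these data known. The alternatives were other background corrections (normexp ran on the median spot and background signals), scalings, filters, blocks, the methods' t-test, scan batches and the leaving out of fish. The within-batch fits of 6 fish across batches, of E and D, of A and B and of pubertal fish, the light and pubertal fits without fish 160 and 250, the liver list and the variable genes with overlap were chosen after seeing the data. One gene of the transcription factor list is not reported here by name.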

Additional observations from a re-analysis of the deposited data

Results flagged for a closer look

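Of 41 groups of 4 to 10 values tested for a value far from the others, 8 had one. Chance flags about 1 in 20 groups, a rate that cannot be set against these, since 6 of the 8 are genes chosen for their change with fish 184 included and the liver list was added after seeing the data. All 8 were of fish 184, among the 6 pubertal fish. Its summed level of the pituitary hormone genes in the pituitary was -1.41 and that of the liver list 13.8. Its testis minus pituitary difference was the lowest for apoa2 (-18.18), rbp4 (-14.57) and akr1d1 (-9.95), and the highest for dydc2 (8.50), si:dkey-111f13.5 (7.90) and nfm (-1.65).

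By the limma test of the difference itself, 92 probes differed between light groups A and B and groups D and E. The 10 genes given here had the 5 largest changes per direction among those with a symbol. The organ difference was higher in A and B for ankrd50l (4.95), lgsn (4.33), itga11b (4.0), gfi1b (2.64) and hoxb9ab (2.55), and lower for elovl2 (-4.37), nkx3-2 (-3.26), cdh19 (-2.02), aanat1 (-1.89) and hoxc4aa (-1.53). All 10 calls were lost among fish with both arrays in scan batch 1, a fit of 3 fish against 2. The lowest adjusted p over all its probes was 0.89 (limma), so the loss does not set these genes apart from any other. The hoxc4aa probe was well above background on no pituitary array of either group, and that of cdh19 on 1, of A and B. For itga11b, gfi1b and hoxb9ab no pituitary of A and B was well above background, and for lgsn 1 was.

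The largest changes between pubertal and immature fish, with fish 184 included, were higher for fbxo36a (5.97), enkur (5.21), cfap43 (5.12), si:dkey-111f13.5 (4.75) and dydc2 (4.69), and lower for rbp4 (-7.81), apoa2 (-7.45), nfm (-6.96), bricd5 (-6.88) and akr1d1 (-6.84). For apoa2, the pubertal pituitary of fish 184 had 10.10, against -8.52 to -6.65 in the other 5, and the adjusted p over the alternatives ran from 0.0095 to 0.089.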

How the results depend on the processing

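Between testis and pituitary 17179 probes were called, against 8281 in the fit with normexp background correction, 10098 with probes well above background on all 28 arrays and 6338 beyond a difference of 2. The other alternatives gave 15936 to 19981, among them 17131 with no replicate block, 16815 with the scan batch as a block, 17196 with the slide as a random block and no replicate block, and 17094 to 17360 when each fish was left out. No called gene named here changed direction between testis and pituitary under these alternatives, and 22 genes lost their call under normexp, among them sstr2a, vgf, mbpa, trhr2 and pou5f3. For E against D, 1 probe was called with no filter on dim probes and 1 within 1 scan batch combination, and 0 to 1 when each fish was left out. For A and B against D and E the 92 calls became 3 with normexp, 274 with quantile normalization, 18 with the authors' processed values, 45 with no filter on dim probes, 0 within scan batch 1, 47 without fish 250, 302 without fish 160 and 250, and 7 to 306 when each fish of A and B was left out. Normexp moved the median change of all probes there to -0.50 from -0.04 and reversed lgsn (-0.13), itga11b (-0.47), gfi1b (-0.67) and hoxb9ab (-0.84). For pubertal against immature fish there were 18425 calls, against 9098 with normexp, and leaving out each pubertal fish gave 17341 to 20327. The causes were not tested. Spots near background limit every fold of a gene that is dim in one organ.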

Other observations

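Among 121 pairs of tested genes whose symbols differ only in a final a or b, 28 pairs were called to the same organ, 7 to opposite organs and 86 did not have both genes called. Of all probes tested, 23.1% were called to the testis and 27.5% to the pituitary. How often random pairs would share an organ was not tested. Many such pairs are duplicate copies, but some, such as c8a and c8b, which encode different complement subunits, are not. The 7 opposite pairs were c7, ece2, jam2, lrp2, pi15, stxbp5 and tpi1. In 2 of them, ece2 and stxbp5, neither gene overlapped between the organs. The gene ece2a had 0.31 in testes and -2.20 in pituitaries (difference 2.51 ± 0.11, SE, adjusted p = 1.6e-12), whereas ece2b had -5.74 in testes and -2.93 in pituitaries (difference -2.81 ± 0.19, SE, adjusted p = 5.2e-10), and the gene encodes an endothelin-converting enzyme of peptide secreting cells. Of the syntaxin-binding pair, stxbp5a had -4.15 in testes and -2.31 in pituitaries (difference -1.84 ± 0.14, SE, adjusted p = 2.7e-09), and stxbp5b had 2.15 in testes and 0.86 in pituitaries (difference 1.29 ± 0.09, SE, adjusted p = 6.1e-10). For the glycolytic enzyme tpi1, tpi1a had 3.47 in testes and 5.22 in pituitaries and tpi1b 5.45 in testes and 4.11 in pituitaries. The genes are named by symbol, and whether each probe binds one of them alone was not tested.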
